A study of Homo sapiens with 6 samples.

Results

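The MYC, MAX, MXD and MNT network is a set of 10 genes, MYC, MYCN, MYCL, MAX, MXD1, MXD3, MXD4, MXI1, MNT and MLX, found by gene symbol among the 38557 genes of the deposited tables. All 10 were present, and 8 passed the low-count filter, as did 13597 genes in all. The symbols were taken from the family and its known partners, though earlier results of these data were known when they were chosen. Poly(A) RNA was sequenced from T-24, an established bladder cancer line of human epithelial origin. The cells, labelled WT where DMSO was given and with no engineered allele named in either group, were kept for 48 h with the vehicle DMSO (3 libraries) or with 1 µM of CCT068127 (3 libraries). CCT068127 is reported to inhibit the kinases CDK2 and CDK9. The labels call the replicates biologically independent, and all come from 1 cell line.

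MYC, MYCN and MYCL are transcription factors that bind DNA only when paired with MAX, chiefly at the E-box CACGTG, and raise the output of growth and ribosome assembly genes. MXD1, MXI1 (also called MXD2), MXD3, MXD4 and MNT compete for MAX and recruit the SIN3 corepressors to the same sites. MLX is a MAX-like protein that pairs with MXD1, MXD4 and MNT and with the nutrient sensors MondoA (MLXIP) and ChREBP (MLXIPL). MYC RNA is short-lived, and MXD genes are typically higher in cells that leave the cycle.

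Depth was uneven, at 371044040 and 411097626 counts for DMSO replicates 1 and 2 and between 1966742 (CCT068127 replicate 2) and 5955296 (DMSO replicate 3) for the other libraries. The precision of the treated values was therefore set by shallow libraries. Of 14 epithelial and urothelial marker genes, KRT7, KRT8, KRT18 and KRT19 were abundant, with a summed level of 3780 to 4950 TPM for the list in DMSO and 5300 to 6750 TPM under CCT068127. EPCAM was at 5.05 and 3.20 TPM and the urothelial factor gene GATA3 at 91.5 and 13.9 TPM under DMSO and CCT068127. KRT14 was at 0.01 and 4.55 TPM and UPK1B at 0.23 and 1.61 TPM under DMSO and CCT068127. CDH1, KRT5, KRT20 and UPK3A had group means of at most 0.243 TPM, and TP63 and UPK2 of at most 0.847 TPM. Of 13 markers of immune, endothelial, fibroblast, erythroid and liver cells, 9 stayed below 1 TPM in every library, and DCN and LUM had 0 counts. The sum of those 13 was 12.3 to 15.8 TPM under DMSO and 46.4 to 46.8 TPM under CCT068127, where CD68, also a lysosomal gene, made up 42.1 TPM. Their part in the results below was not tested.

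The 250 bases before each annotated start (RefSeq, GRCh38.p14) were searched for the E-box letters CACGTG, which read alike on both strands. The window of MYC was not used here. The other 9 members have 12 such windows, and the letters occurred in 3 of them, those of MXD4, MNT and MLX, beside 6.34% of all 35116 promoter windows of that length. These 3 are shown because their transcripts were all lower after CCT068127, with the E-box in capitals, on the gene's strand and only as far as the gene body annotated by GENCODE 29. The E-box began 238 bases before the start of MXD4 (chr4:2262295-2262359, minus strand), 193 before that of MNT (chr17:2401119-2401310, minus strand) and 50 before that of MLX (chr17:42566850-42567067, plus strand).
MXD4: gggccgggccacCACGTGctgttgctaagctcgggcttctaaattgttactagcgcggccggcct
MNT: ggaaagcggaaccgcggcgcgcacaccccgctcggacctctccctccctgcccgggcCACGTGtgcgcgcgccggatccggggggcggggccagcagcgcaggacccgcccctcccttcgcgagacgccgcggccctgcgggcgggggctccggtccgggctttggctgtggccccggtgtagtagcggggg
MLX: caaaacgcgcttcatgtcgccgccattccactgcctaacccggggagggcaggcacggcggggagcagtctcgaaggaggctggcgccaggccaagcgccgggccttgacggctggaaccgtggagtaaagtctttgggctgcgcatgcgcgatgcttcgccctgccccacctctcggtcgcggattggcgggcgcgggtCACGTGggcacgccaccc
MXI1, the member with the lowest fold change, held no such letters in any of its 3 windows, nor did MXD1, MXD3, MAX, MYCN or MYCL. A match is a description of the sequence and does not show that a protein was bound there.

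Within the network, the balance of transcripts moved from the repressor partners toward MYC. In DMSO cells MYC made up 23.0%, 20.1% and 21.9% of the summed TPM of the 10 genes in replicates 1 to 3. TPM is a transcript level scaled to gene length and to the library, so genes can be compared on it. After CCT068127 the MYC share was 42.0%, 39.9% and 41.3%. Each treated library was well above each control library. The 5 repressor partners MXD1, MXD3, MXD4, MXI1 and MNT together took 44.4%, 46.4% and 43.9% in DMSO and 27.6%, 18.5% and 26.7% in CCT068127, again without overlap. The summed network level itself was 324 ± 11.3 TPM under DMSO and 194 ± 7.35 TPM under CCT068127 (SD, n = 3). On log2(TPM + 1) values the median of all genes was -0.46, with 51.9% called lower and 17.2% higher. MYC alone was at 70.2 and 79.8 TPM under DMSO and CCT068127, with overlapping groups, so its larger share goes with the smaller sum.

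**Figure D1:**
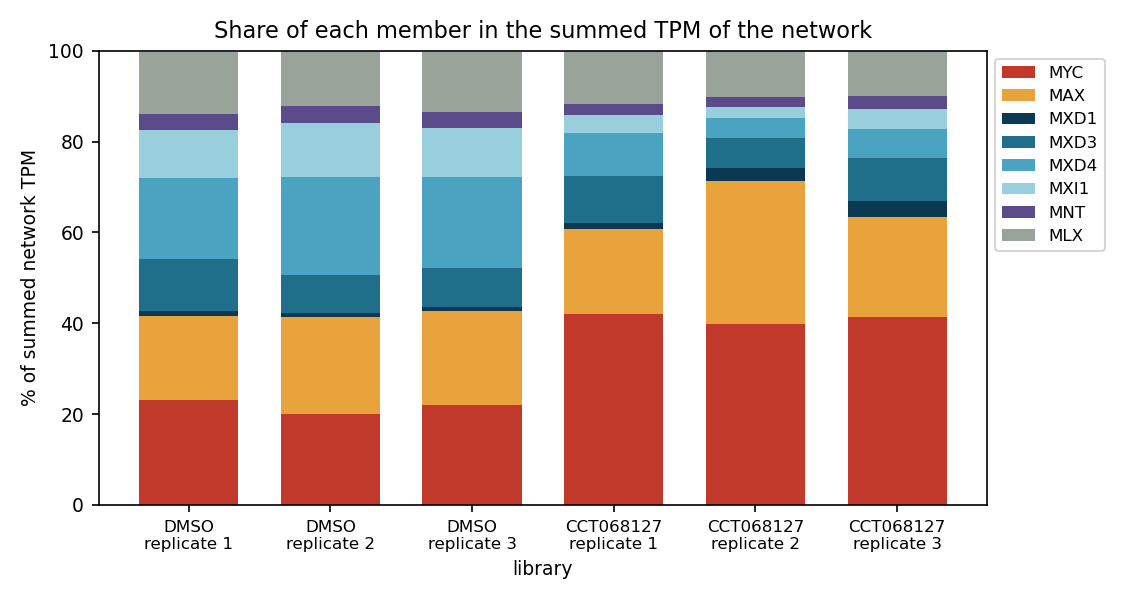
Stacked bars give the percent of the summed TPM of the network that each member holds in each of the 6 libraries; MYCN and MYCL are too low to see. The MYC share is near 22% in DMSO and near 41% in CCT068127, and the MXD4 and MXI1 bands are narrower in all 3 treated libraries.

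Ratios taken within a library do not depend on how libraries are scaled against each other. The ratio of MYC to the summed repressors, in TPM, was 0.519, 0.433 and 0.498 in DMSO replicates 1 to 3. It was 1.52, 2.15 and 1.55 in CCT068127 replicates 1 to 3, so that MYC passed from below to above its summed repressors in every treated library. The mean log2 difference was 1.83. The repressor sum was 146 TPM under DMSO and 47.3 TPM under CCT068127. Of this, MXD3 made up 30.8 and 17.2 TPM, a value that is uncertain because its exons overlap those of other genes. The ratio of MYC to MNT, the most widely expressed of the repressors in normal tissue, went from 6.04 ± 0.564 to 16.6 ± 1.69, a log2 difference of 1.46 (1.25 when taken from counts in place of TPM).

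The ratio of MYC to its obligate partner MAX was 1.23, 0.943 and 1.05 in DMSO and 2.25, 1.27 and 1.88 in CCT068127. These groups were nearest each other at DMSO replicate 1 and CCT068127 replicate 2. In that treated library the counts of MAX per unit of TPM, relative to MYC, were 0.33 against 0.44 to 0.48 in the other 5, and the ratio taken from counts was 3.82 there, far above the DMSO range of 2.09 to 2.60. The summed repressors over MAX went from 2.22 ± 0.134 to 1.09 ± 0.456, a log2 difference of -1.12 that stood at -0.73 without CCT068127 replicate 2. For all 6 ratios and shares the groups did not overlap, and each had a two-sided exact permutation p of 0.1 (0.1 after Benjamini-Hochberg adjustment over the 6), the smallest that 3 against 3 allows, so none can pass 0.05.

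**Figure D2:**
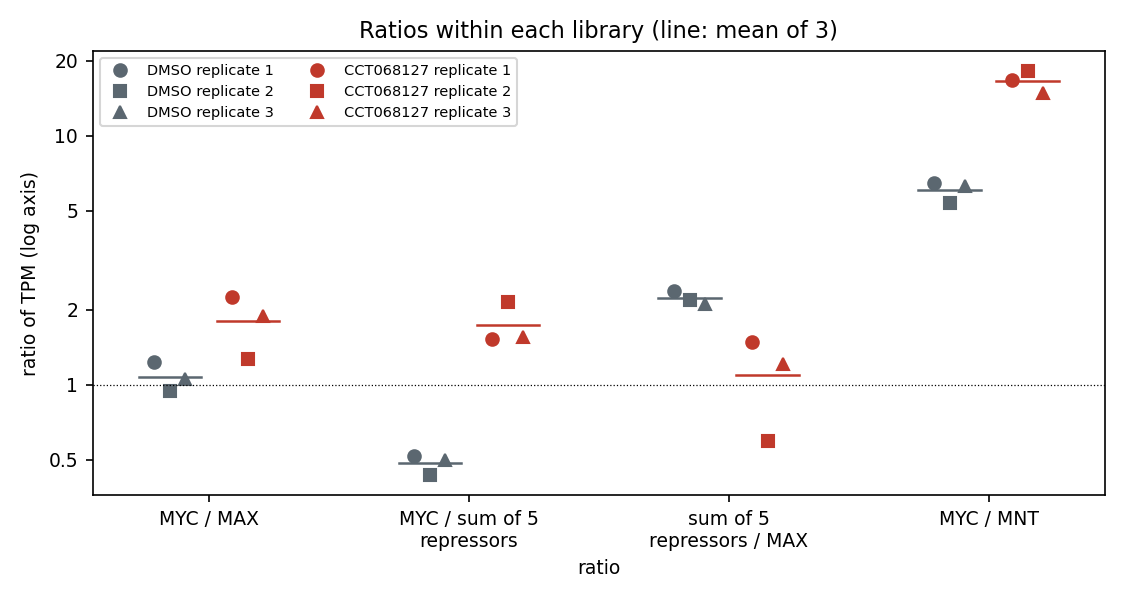
Points give 4 ratios of TPM in each library on a log axis, grey for DMSO and red for CCT068127, with lines at the means of 3 libraries. MYC over the summed repressors lies between 0.433 and 0.519 in DMSO and between 1.52 and 2.15 in CCT068127.

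Single members were tested on the deposited counts with edgeR's quasi-likelihood test after TMM scaling, with Benjamini-Hochberg adjustment over all 13597 genes. Levels below are in CPM, counts scaled to the size of the library after TMM. Of the 8 tested members, MYC and MXD1 rose, MXD4, MXI1, MNT and MLX fell, and MAX and MXD3 did not pass. The share called, 6 of 8 (75%), is near the 64.7% of all tested genes that passed (31.9% higher and 32.8% lower), so the number of calls is no feature of the network. The groups did not overlap in CPM for the same 6 members, 2 higher and 4 lower, against 69.4% of all tested genes (33.3% higher and 36% lower).

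MYC, the activator that dominates the family in these cells, stood at 139, 121 and 122 CPM under DMSO replicates 1 to 3. It stood at 209, 189.65 and 212 CPM under CCT068127 replicates 1 to 3. All treated libraries lay above all controls, a 1.6-fold rise (log2 fold change 0.68 ± 0.10 SE, edgeR adjusted p = 0.000169), and 77.5% of tested genes had a lower log2 fold change. Per length, MYC was at 70.2 ± 5.91 TPM under DMSO and 79.8 ± 4.21 TPM under CCT068127 and the groups overlapped. On the log2(TPM + 1) scale its difference was 0.18 (limma adjusted p = 0.121), on a scale where the median of all genes was -0.46, against -0.05 with TMM. Relative to the median gene of each scale, MYC was higher by 0.73 with TMM and by 0.65 on the log2(TPM + 1) scale.

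MYCL and MYCN, the other family members, were barely detected. MYCL (chromosome 1, 39895426 to 39902256, GRCh38) had 300, 378 and 3 counts under DMSO and 0, 0 and 1 under CCT068127. Pooled over libraries this was 0.864 against 0.0821 CPM of the library totals, a ratio of DMSO to CCT068127 of 10.5 (exact 95% interval 1.88 to 416, counting error only). MYCN (chromosome 2, 15940564 to 15947007) had 15 pooled DMSO counts and 1 pooled treated count, and the ratio of CCT068127 to DMSO, 4.31, had an interval from 0.102 to 28. No difference in MYCN was detectable at this depth. A gene with 0 counts was limited to 0.54, 1.53 and 0.644 CPM under CCT068127 replicates 1 to 3 (3 counts of the total).

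MAX (chromosome 14, 65006174 to 65102695), the shared partner, stood at 53.4, 57.8 and 51.2 CPM under DMSO and 44.6, 49.7 and 53.0 CPM under CCT068127. The groups overlapped and MAX did not pass (-0.15 ± 0.11, edgeR adjusted p = 0.256). It passed as lower with scaling by library totals (-0.46, adjusted p = 0.00363), without a low-count filter (-0.39, adjusted p = 0.0313) and on the log2(TPM + 1) scale (-0.52, limma adjusted p = 0.0285).

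MXD4 and MXI1 were the members with the widest change. MXD4 (chromosome 4, 2247432 to 2262294), a repressor typical of resting and differentiated cells, stood at 108, 130.1 and 114 CPM under DMSO and at 47.7, 21.1 and 33.4 CPM under CCT068127. The highest treated library was under the lowest control, and MXD4 fell 3.27-fold (-1.71 ± 0.20, edgeR adjusted p = 5.07e-05). MXI1 (chromosome 10, 110207605 to 110287365), a repressor named for its interaction with MAX, stood at 54.2, 61.9 and 52.4 CPM under DMSO and at 16.9, 9.71 and 18.9 CPM under CCT068127. It fell 3.49-fold (-1.80 ± 0.17, adjusted p = 6.73e-06), also without overlap. Only 4.16% and 3.65% of tested genes had a lower log2 fold change than MXD4 and MXI1, and both passed as lower in all 18 alternative analyses. Their lowest values were in CCT068127 replicate 2, the shallowest library, with 37 counts of MXD4 and 17 of MXI1.

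MNT (chromosome 17, 2384060 to 2401118), which is present in cycling and resting cells alike, fell 1.45-fold, from 26.9, 28.1 and 25.4 to 18.5, 15.4 and 20.4 CPM (-0.54 ± 0.13, edgeR adjusted p = 0.0036). MLX (chromosome 17, 42567068 to 42573239) fell 1.46-fold, from 49.9, 43.9 and 44.8 to 35.1, 28.6 and 30.3 CPM (-0.54 ± 0.12, adjusted p = 0.00239). For both, each treated library was below each control. With DMSO replicate 3 as the only control, a lone library assumed to vary like the treated ones, MNT (-0.49, adjusted p = 0.137) and MLX (-0.53, adjusted p = 0.0694) did not pass. MLX shares 18.1% of its exonic bases with PSMC3IP on the other strand. PSMC3IP had 6715 pooled DMSO and 570 pooled CCT068127 counts against 40705 and 350 of MLX. These counts are not scaled and the DMSO pool is far deeper, so they compare the genes only within a group. PSMC3IP was thus below MLX under DMSO and above it under CCT068127, and its part in the MLX value was not tested. MNT shares 12.2% of its exonic bases with an antisense gene not in the tables.

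MXD1 (chromosome 2, 69897688 to 69942945), the repressor first described as MAD, went against MXD4 and MXI1. It stood at 8.97, 7.89 and 7.02 CPM under DMSO and at 10.4, 19.99 and 26.5 CPM under CCT068127, where replicate 1 lay just above the controls. MXD1 rose 2.29-fold (1.19 ± 0.28, edgeR adjusted p = 0.00358), or by 0.76 on the log2 scale without CCT068127 replicate 3 (adjusted p = 0.047). On the log2(TPM + 1) scale it did not pass (0.54, limma adjusted p = 0.123). Its rise did not restore the repressor sum, since MXD1 was at 3.0 ± 0.36 TPM under DMSO and 5.11 ± 2.25 TPM under CCT068127. MXD4 stood at 64.1 ± 5.46 and 13.2 ± 4.90 TPM. MXD1 shares 3.73% of its exonic bases with SNRNP27 on the same strand, which had more counts than MXD1 in each group. The part of SNRNP27 in the MXD1 value was not tested.

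MXD3 (chromosome 5, 177301461 to 177312757), the MXD gene linked to S phase in cycling cells, stood at 18.7, 13.9 and 13.4 CPM under DMSO and 14.1, 8.57 and 14.4 CPM under CCT068127. The groups overlapped, and MXD3 did not pass (-0.26 ± 0.20, edgeR adjusted p = 0.284). Its difference was -0.09 without DMSO replicate 1, and on the log2(TPM + 1) scale it was called lower (-0.81, limma adjusted p = 0.00945). MXD3 shares 22.5% of its exonic bases with PRELID1 on the other strand and 18% with RAB24 on the same strand, and both neighbours had more counts than MXD3 in each group. PRELID1 rose (0.83 ± 0.14) and RAB24 fell (-1.45 ± 0.11), so the value of MXD3 is uncertain.

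**Figure D3:**
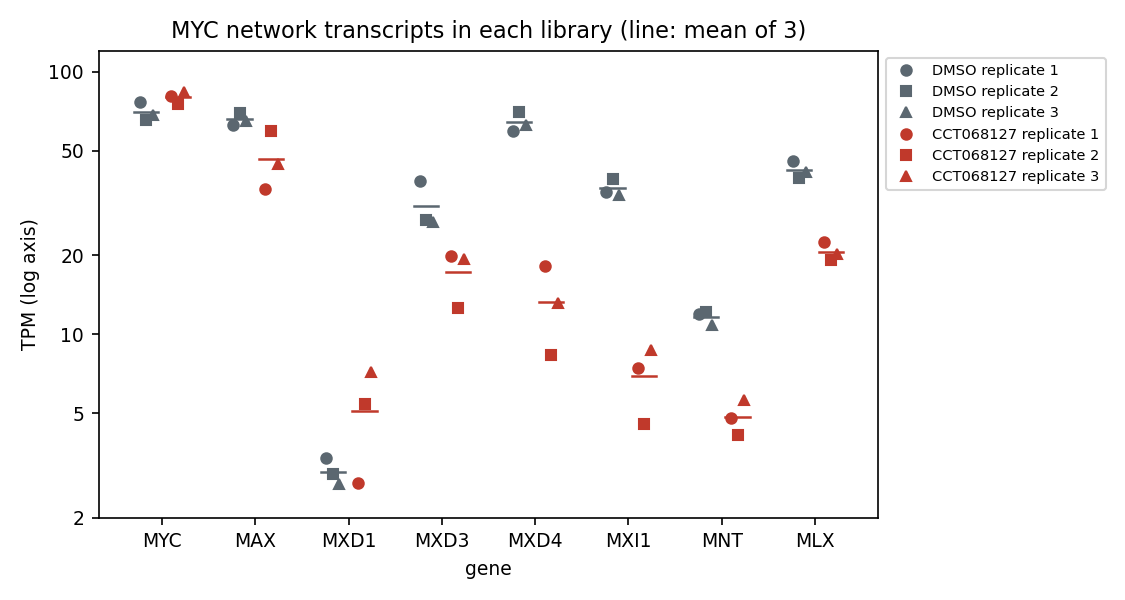
Points give the TPM of the 8 tested members in each library on a log axis, grey for DMSO and red for CCT068127, with lines at the means of 3 libraries. MXD4, MXI1, MNT, MLX, MXD3 and MAX lie lower in all treated libraries on this scale, while MYC and MXD1 overlap.

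**Figure D4:**
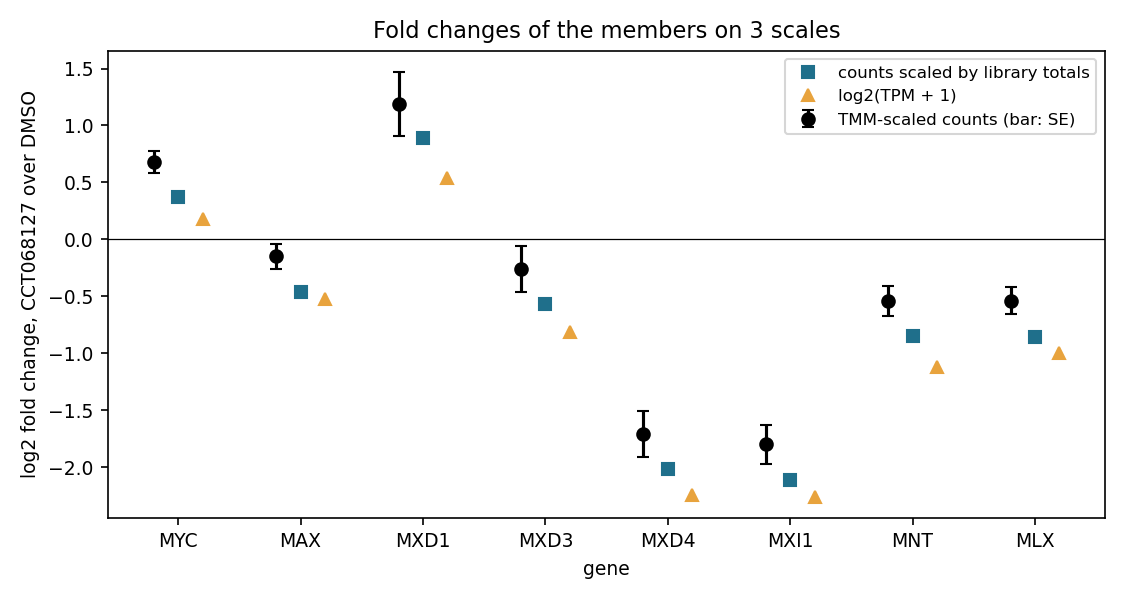
Log2 fold changes of CCT068127 over DMSO are shown for TMM-scaled counts (black, bars are SE), counts scaled by library totals (blue) and log2(TPM + 1) values (orange). The order of the members is nearly the same on each scale. MAX and MXD3 pass as lower on the last 2 scales, and MYC and MXD1 do not pass on the log2(TPM + 1) scale. The median of all genes is -0.05, -0.36 and -0.46 on the scales in turn. The cause of the changed calls was not tested.

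The order of levels per length changed with the fall of MXD4 and MXI1. In DMSO it ran MYC (70.2 TPM), MAX (65.7), MXD4 (64.1), MLX (42.2), MXI1 (35.9), MXD3 (30.8), MNT (11.6), MXD1 (3.0), MYCL (0.47) and MYCN (0.01), and the libraries of MYC, MAX and MXD4 overlapped, as did those of MXI1 and MXD3. In CCT068127 MYC (79.8 TPM) stood above MAX (46.5) and MAX above MLX (20.6), with no overlap in either step. MXD3 (17.2), MXD4 (13.2), MXI1 (6.91), MXD1 (5.11) and MNT (4.86) followed, and neighbours from MLX down to MNT overlapped. On TPM values 6 of the 8 tested members did not overlap between groups, all lower (75%, against 74.3% of genes at 1 TPM or more in 3 libraries, made up of 18.7% higher and 55.7% lower).

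Further partners did not pass. MLXIP, which encodes MondoA, stood at 56.2 ± 2.21 CPM under DMSO and 52.5 ± 3.79 CPM under CCT068127 (-0.09 ± 0.10, edgeR adjusted p = 0.465). MGA, a MAX partner of a repressive complex, stood at 35.8 ± 2.29 and 32.7 ± 8.3 CPM (-0.19 ± 0.15, adjusted p = 0.3), or at -0.38 without CCT068127 replicate 2, when it passed (adjusted p = 0.0149). MLXIPL, which encodes ChREBP, had 28 pooled DMSO counts and 1 pooled treated count and was too low to test. The MondoA partner MLX therefore fell while MLXIP gave no call, and the difference between those 2 genes was not tested.

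Known targets of the MLX complexes gave calls in both directions. Of 7 listed genes 6 were tested, 4 rose (66.7%, against 31.9% of all tested genes) and 2 fell (33.3%, against 32.8%), with a median log2 fold change of 0.53 beside -0.05 over all tested genes. TXNIP, an arrestin-family brake on glucose uptake and the best known MondoA target, stood at 425, 557 and 538 CPM under DMSO and 285, 338 and 308 CPM under CCT068127. It fell with no overlap (-0.71 ± 0.12, edgeR adjusted p = 0.000469). HBP1, a transcriptional repressor, also fell (-1.25 ± 0.14). ARRDC4, the TXNIP paralog, stood at 26.8 ± 2.69 and 34.3 ± 3.96 CPM and passed narrowly as higher (0.34 ± 0.13, adjusted p = 0.0422), a call kept in 6 of 18 alternatives and turned to -0.12 on the log2(TPM + 1) scale. KLF10 (1.02 ± 0.17), FASN, the fatty acid synthase (1.55 ± 0.15), and ACLY, which makes cytosolic acetyl-CoA (0.72 ± 0.13), rose. Their calls were kept in 17, 18 and 15 of 18 alternatives in turn, and the groups of ACLY overlapped in TPM. On the log2(TPM + 1) scale 2 of the 6 tested genes were higher and 2 lower (33.3% each, against 17.2% and 51.9% of all genes). FASN and ACLY also answer to the sterol factor SREBP. PKLR, a pyruvate kinase, had 65 pooled DMSO and 13 pooled CCT068127 counts, a ratio of CCT068127 to DMSO of 12.9 (exact 95% interval 6.54 to 23.7, counting error only).

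The TXNIP promoter holds the paired half-sites through which MondoA-MLX complexes are known to bind, and is shown because TXNIP and MLX both fell. The letters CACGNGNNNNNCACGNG, in which a CACGTG can also lie, were found on either strand in 0.0456% of the 35116 windows. They were found in 1 of the 2 TXNIP windows and are in capitals, starting 88 bases before its start site (chr1:145996601-145996829, minus strand, RefSeq GRCh38.p14).
TXNIP: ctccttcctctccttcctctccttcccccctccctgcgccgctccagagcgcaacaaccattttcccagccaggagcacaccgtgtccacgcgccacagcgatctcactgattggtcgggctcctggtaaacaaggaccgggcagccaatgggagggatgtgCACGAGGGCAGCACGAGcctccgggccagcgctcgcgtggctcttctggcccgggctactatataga
No such pair lay in the windows of the 9 members searched or of ARRDC4, whose window held 1 E-box. A match does not show that a protein was bound there, and a link between the falls of MLX and TXNIP was not tested.

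Genes widely used as targets that MYC activates, mostly of ribosome assembly, were higher in most cases. Of 62 listed genes 61 were tested, with a median log2 fold change of 0.46. Of these, 42 rose (68.9%, against 31.9% of all tested genes), 3 fell (4.92%, against 32.8%) and 16 did not pass. The genes with the smallest adjusted p were MCM4 (1.75 ± 0.10) and MCM5 (2.43 ± 0.15), subunits of the replicative helicase, and PHB (1.51 ± 0.10), a mitochondrial scaffold. The members with the strongest evidence are thus not ribosome assembly genes. PPAN, a ribosome assembly factor, fell (-0.71 ± 0.13, edgeR adjusted p = 8e-04). Scaled by library totals, 24 rose and 9 fell (backgrounds 22.1% and 48.3%, or 70.4% in all), and on the log2(TPM + 1) scale 13 of 62 rose and 14 fell with a median of -0.01 (backgrounds 17.2% and 51.9%, or 69.1% in all). With DMSO replicate 3 alone as control, the median log2 fold change of the list was 0.51, beside 0.02 for all genes.

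Of 11 genes listed as targets that MYC represses, all were tested, 3 rose (27.3%, against 31.9% of all tested genes), 5 fell (45.5%, against 32.8%) and 3 did not pass, with a median of -0.12. CDKN1B, which encodes the kinase inhibitor p27, fell from 114 ± 8.97 to 33.1 ± 4.54 CPM (-1.76 ± 0.12, edgeR adjusted p = 7.57e-07). CDKN2B, which encodes p15 (-1.42 ± 0.14), and the TGF-beta receptor gene TGFBR2 (-0.97 ± 0.11) also fell. THBS1, which encodes the matrix protein thrombospondin 1, rose from 99.2 ± 2.40 to 326 ± 18.3 CPM (1.72 ± 0.09).

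Cofactors of MYC and of the MXD proteins were called at shares near those of all tested genes. Of 19 tested, 7 rose (36.8%, against 31.9%), 8 fell (42.1%, against 32.8%) and 4 did not pass (median -0.15). The corepressor genes SIN3A (-0.64 ± 0.10) and SIN3B (-0.61 ± 0.10), whose products MXD proteins and MNT bind, fell, as did the chromatin remodelling subunit gene SMARCB1 (-0.74 ± 0.11). SIN3A went from 88.8 ± 2.26 to 57.9 ± 5.73 CPM and SIN3B from 76.7 ± 1.05 to 49.9 ± 2.27 CPM, each without overlap (edgeR adjusted p = 0.000315 and 0.00026). RUVBL1, an ATPase of acetyltransferase and remodelling complexes that bind MYC, rose from 72.0 ± 1.42 to 138 ± 9.17 CPM (0.93 ± 0.10). These genes are named for their small adjusted p. Other listed genes of the acetyltransferase complexes were called in both directions, as were those of the SIN3 corepressor. The list therefore does not split into a MYC and an MXD side. Scaled by library totals, 4 cofactors rose and 12 fell (21.1% and 63.2%, against 22.1% and 48.3% of all genes). On the log2(TPM + 1) scale 1 rose and 12 fell (5.26% and 63.2%, against 17.2% and 51.9%).

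A further list held 15 genes whose products act on MYC protein stability. Of these, 6 rose (40%, against 31.9% of all tested genes), 5 fell (33.3%, against 32.8%) and 4 did not pass. The shares were near the background, with a median of -0.07. SKP2, an E3 ligase subunit that ubiquitinates MYC and p27, rose from 19.0 ± 1.99 to 60.3 ± 2.97 CPM (1.68 ± 0.12, edgeR adjusted p = 6.88e-07). HUWE1, another ligase of MYC, fell from 282 ± 3.89 to 123 ± 16.7 CPM (-1.21 ± 0.11). USP37, a deubiquitinase, rose by 0.63 ± 0.14. It did not pass on the log2(TPM + 1) scale (0.31), where 1 of the list rose and 8 fell (6.67% and 53.3%, against 17.2% and 51.9% of all genes).

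**Figure D5:**
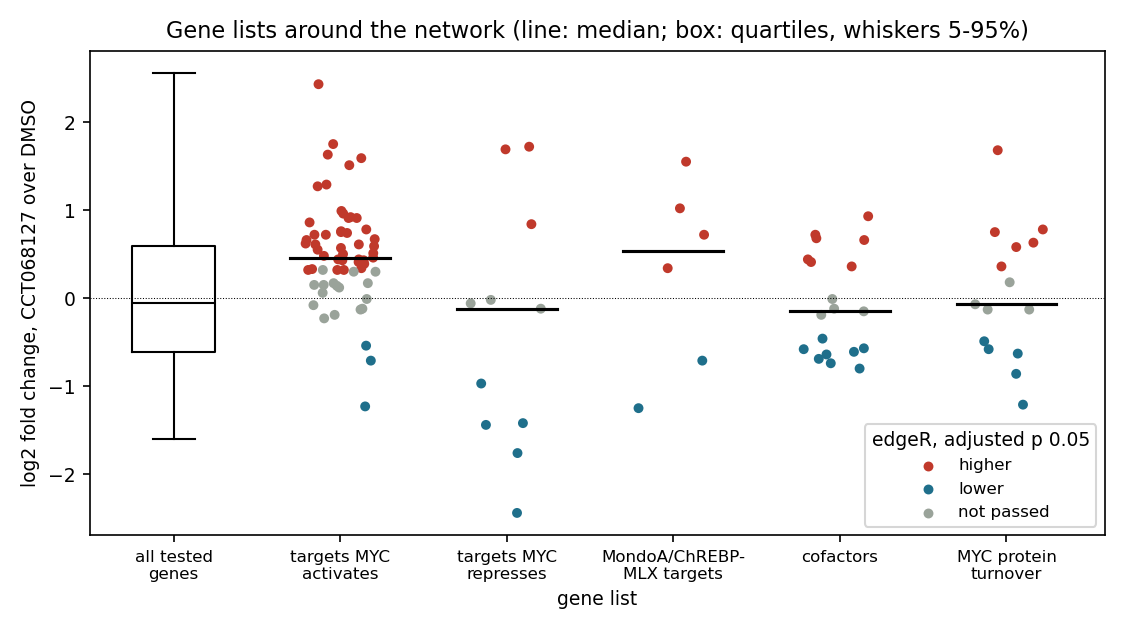
Each point is the log2 fold change of 1 tested gene, coloured by its edgeR call, with the list's median as a line and all tested genes as a box (quartiles, whiskers from the 5th to the 95th percentile) on TMM-scaled counts. The median of the activated targets is 0.46 beside -0.05 for all tested genes, and the other lists spread to both sides of zero.

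The genes whose profile over the 6 libraries lay nearest to that of MYC were RNF126, H2AX, USP31, MAP2K3 and NQO1. Their Euclidean distances to MYC in centred log2 CPM were 0.08, 0.08, 0.13, 0.13 and 0.14, among 11337 genes whose mean reached 5 CPM, where the median distance was 1.16. Their log2 fold changes were 0.66, 0.68, 0.70, 0.78 and 0.59. With 6 libraries in 2 groups, the likeness mainly says that these genes had a rise of the same size as MYC.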

How the data were processed

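RNA-seq values of 6 T-24 libraries were used. The authors deposited estimated counts per gene, already rounded to whole numbers, and TPM values. The submitters' processing notes name RSEM, Bowtie and hg38; versions, annotation and strand setting are not given in the sources used here. The count analysis used edgeR 4.0.16 under R 4.3.3: filterByExpr (minimum count 10, equal to 1.74 CPM, in at least 3 libraries), TMM, robust quasi-likelihood fit with treatment as its term, Benjamini-Hochberg adjustment and calls at 0.05. Standard errors were derived from the F statistic. "Rose" and "fell" mark calls of this fit.

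The members, the gene lists and the alternatives were chosen with earlier results of these data known. The text names every member, all genes of the MLX target and partner lists, up to 3 called genes in the more common direction and 1 in the other for the remaining target, cofactor and turnover lists (smallest adjusted p), and the 5 nearest profiles to MYC. A gene that this rule selects is not reported here by name and remains in its list's counts. The listed PHB1 was matched as PHB. Alternatives were other scalings, no filter, the replicate number as a block, leaving out libraries, thinning DMSO replicates 1 and 2 (1 draw), DESeq2 1.42.0, and limma 3.58.1 (voom, or log2(TPM + 1) and log2(TPM + 0.1) keeping genes at 1 TPM in 3 libraries, and the former also unfiltered). TPM fold changes are differences of these logs, and the pseudocount shrinks those of low genes. The fits were run on simulated counts in which a small share of genes changed, evenly in both directions. Far more genes were called here, so that run does not bear on the choice of scaling. Intervals are exact and cover counting error only. Gene positions are from GENCODE 29 (GRCh38). No spike-in was named, so fewer cells or less RNA per cell cannot be told apart from relative change.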

Additional observations from a re-analysis of the deposited data

How the results depend on the processing

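Across 18 alternatives each, the log2 fold changes of the 8 tested members gave the main call and direction in 127 fits, lost a call in 8 and gained one in 9, with no change of sign. MXD4 ranged from -2.34 to -1.55, MXI1 from -2.41 to -1.68 and MYC from 0.18 to 0.72. On the 3 TPM scales 0 members were called higher. Without a low-count filter 7 were called lower. Over all genes, 17.2% were higher and 51.9% lower on filtered log2(TPM + 1) values, and 10.9% and 26.4% on unfiltered ones. With the smaller pseudocount these shares were 17% and 50.7%, with library totals 22.1% and 48.3%, and without a filter 18.9% and 21.6%. When single libraries were left out, 27.7% to 34.2% of all genes were lower. The list counts below are to be read beside these shares. Called lower among the further partners were 2 with library totals, 1 without a filter and on each TPM scale, and 0 to 1 when single libraries were left out. For cofactors, the number higher was 4 with library totals or no filter and 1 on each TPM scale. For MYC protein turnover it was 2 with library totals, 3 without a filter and 1 on each TPM scale. There 8 were lower with library totals and on each TPM scale. For activated targets, 24 were higher with library totals, 25 without a filter and 13 on each TPM scale. Lower were 9 with library totals and 6 without a filter. On the TPM scales 14, 11 and 14 were lower (filtered, unfiltered, and filtered with the smaller pseudocount). With DMSO replicate 3 as the sole control, median log2 fold changes were -0.29 for the members and 0.02 for all genes. They were -0.25 for cofactors, 0.06 for protein turnover and 0.51 for activated targets. Of the repressed targets 8 were lower on both filtered TPM scales, and of the MLX targets 2 were higher on each TPM scale. ARRDC4 turned to -0.12, -0.12 and -0.13 on the TPM scales. The MYC to MNT difference was 1.25 from counts. The median of all genes also differed between scalings (-0.36 with library totals, -0.46 on log2(TPM + 1) values). The cause of the changed calls was not tested.

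Same-numbered libraries did not deviate together (correlations of 0.01, 0 and 0.01), so the numbers were not taken as pairs. With the replicate block 8297 genes passed against 8793, 2 members were higher and 4 lower, and the differences in ratio had a paired exact permutation p of 0.25, the smallest for 3 pairs. Values of MXD4, MXI1, MXD1 and MXD3 in CCT068127 replicate 2 rest on 37, 17, 35 and 15 counts.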

Other observations

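The counts of a member per unit of TPM, relative to those of MYC in the same library, follow the transcript lengths that the quantification assigned. For MXD4, MXI1, MXD1 and MLX this value was steady across the 6 libraries (1.00 to 1.01, 0.85 to 0.87, 1.46 to 1.47 and 0.59 to 0.61). For MNT it was 1.25, 1.26 and 1.31 under DMSO and 1.49, 1.48 and 1.43 under CCT068127, without overlap, and for MAX it dropped only in CCT068127 replicate 2 (0.33). The log2 fold change of MNT was -0.54 on TMM-scaled counts and -1.12 on log2(TPM + 1) values. Relative to the median gene of each scale, MNT was at -0.49 and -0.65. How much the assigned length adds to this gap was not tested.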
